A study of Caenorhabditis elegans with 2 samples.

Results

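The 44 genes described here code for regulators of the cell cycle, for the machinery of DNA replication and for proteins of mitosis in the nematode Caenorhabditis elegans. They were taken by name from a list of cell cycle and replication genes, and all 44 names matched 1 of the 19973 protein-coding genes annotated on the nuclear chromosomes. The 44 genes were chosen with earlier results of these data known, so their share with a peak is a description only. The measure was whether a ZTF-11 summit fell no more than 1000 bp from a gene's 5' end, called a peak of that gene. ChIP-seq, the sequencing of DNA precipitated with a chromatin protein, used intact hermaphrodites at the L1 larval stage, collected 6 hours after their synchronization as starved L1 larvae following bleaching. All worms were of strain OP511, which carries unc-119(tm4063) on chromosome III and the integrated transgene wgIs511, expressing ZTF-11 with a C-terminal GFP-FLAG tag, and the precipitating antibody was against GFP. The labels give 1 group of 2 biological replicates, so no condition was compared and no p-value is given. The labels do not say which promoter drives the transgene, and whole larvae mix all cell types, so the cells in which a gene was bound are not known.

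ZTF-11 belongs to the MYT1 family of zinc-finger proteins, which act mainly as repressors and are known for their part in making neurons. Cells enter the cycle when cyclin D with CDK4 and cyclin E with CDK2 drive them through G1. Origins of replication are licensed beforehand, when ORC, CDC6 and CDT1 load the MCM helicase, and in mitosis cyclin B with CDK1, the kinetochore, condensin and the spindle checkpoint carry out the division. In early L1 larvae most blast cells inherited from the embryo rest in G1, held there by inhibitors such as CKI-1, until feeding lets them divide again. In worms as in mammals, many cell cycle genes are repressed in resting cells by the DREAM complex, which reads the CHR element and E2F sites in their promoters.

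The deposited list of peaks that passed the irreproducible discovery rate (IDR) step held 1875 peaks. Their order by signal was that of the first 1875 of 30000 regions called on both replicates pooled, so ranks below refer to either list. Signal is the caller's own value on an unstated scale that differs between lists. It ran from 66.2 to 1072 in the IDR list with a median of 106.8, and across lists only ranks were compared. The read depth is not known from these lists, and no library without the transgene was analysed here.

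A ZTF-11 peak was found at 14 of the 44 genes (31.8%), against 1615 of all 19973 coding genes (8.09%). By role, 4 of 9 genes of G1 and G1/S control, 4 of 14 replication genes and 6 of 21 mitosis genes had one. The shares of 44.4%, 28.6% and 28.6% rest on few genes, and the differences among them were not tested. The 14 genes were served by 14 separate strongest peaks, and pcn-1 had a weaker peak besides. Peaks at these genes were of ordinary strength: the median signal of the strongest peak was 100.6 at the 14 genes and 123.6 at all coding genes with a peak. The strongest were at hcp-6 (rank 102) and pcn-1 (rank 113), and 7 of the 44 genes (15.9%) had a peak when only the 937 strongest were used, against 4.84% of all coding genes. That left a peak at 7 of the 14 genes, against 966 of the 1615 coding genes with one.

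**Figure D1:**
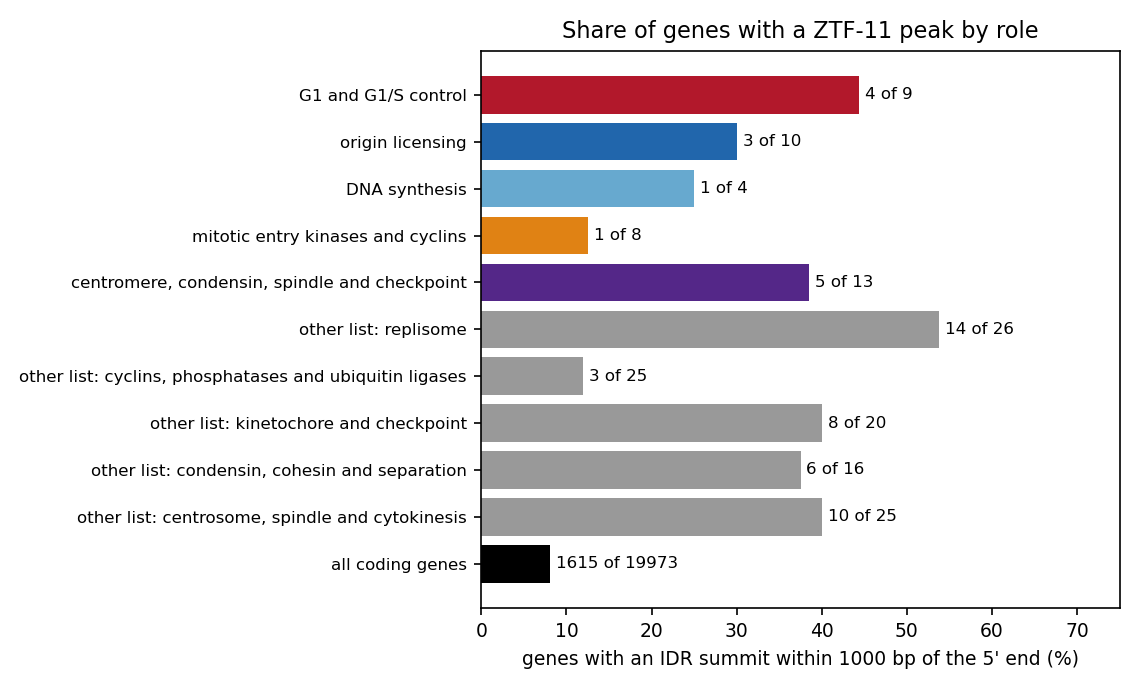
Share of genes with an IDR summit within 1000 bp of the 5' end (percent, horizontal axis) for the 5 roles among the 44 genes (coloured), for 5 lists of other cell cycle genes (grey) and for all coding genes (black), with counts at the bars. Kinases and cyclins of mitotic entry (1 of 8) and the list of other cyclins, phosphatases and ubiquitin ligases (3 of 25) had the lowest shares among the 10 lists, and other replisome genes (14 of 26) the highest.

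The sequence at the summits is shown for 7 of these peaks, some with a CHR element or E2F site and, for contrast, those of cki-1, cki-2 and cdk-4, which held none. Each line gives the bases from 50 bp before to 50 bp after the summit on ce11, from the RefSeq genome, read 5' to 3' on the strand of the gene. Capitals mark every match to the motifs searched, and the smc-4 window was cut where an annotated UTR begins.
mcm-2 (chrII:12006823-12006923, minus strand): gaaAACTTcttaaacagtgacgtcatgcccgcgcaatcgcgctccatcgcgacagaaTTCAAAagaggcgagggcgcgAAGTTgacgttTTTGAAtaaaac
pcn-1 (chrIV:4049661-4049761, minus strand): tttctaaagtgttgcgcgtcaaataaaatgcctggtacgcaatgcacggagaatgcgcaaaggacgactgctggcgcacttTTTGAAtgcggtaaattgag
wee-1.3 (chrII:9716800-9716900, minus strand): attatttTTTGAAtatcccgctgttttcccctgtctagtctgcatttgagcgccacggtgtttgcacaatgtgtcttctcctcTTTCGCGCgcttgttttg
smc-4 (chrIII:4587331-4587414, plus strand): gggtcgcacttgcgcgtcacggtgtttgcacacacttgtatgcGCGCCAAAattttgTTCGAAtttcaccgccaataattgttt
cki-1 (chrII:7810888-7810988, plus strand): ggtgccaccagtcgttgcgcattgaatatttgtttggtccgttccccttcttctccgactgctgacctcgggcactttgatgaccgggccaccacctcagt
cki-2 (chrII:7815552-7815652, plus strand): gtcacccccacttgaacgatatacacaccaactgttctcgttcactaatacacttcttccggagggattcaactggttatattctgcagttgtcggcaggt
cdk-4 (chrX:13519184-13519284, minus strand): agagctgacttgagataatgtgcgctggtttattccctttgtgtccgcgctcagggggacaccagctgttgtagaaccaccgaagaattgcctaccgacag

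Within 50 bp, CHR elements and E2F sites were more frequent at these summits than at ZTF-11 peaks in general. GAGAGA, at 1 of 15 summits, was less frequent. Within 25 bp the CHR share was 6.7%, against 7.8% at IDR peaks near coding 5' ends and 7.2% at all IDR peaks. The motifs searched, on both strands, were the CHR element (TTTGAA or TTCGAA), the E2F site (TTTCCCGC, TTTGGCGC, TTTGCCGC or TTTCGCGC), AAGTT and GAGAGA, as well as CTGCGTCT and also GGCGGG, whose reverse complement can overlap the first E2F form. A CHR element lay within 50 bp of 7 of the 15 summits at the 44 genes (46.7%), namely those of mcm-2, mcm-4, the stronger pcn-1 peak, wee-1.3, hcp-6, smc-4 and bub-1. The share was 25.7% at the 1183 IDR peaks that lay near a coding 5' end, 21.8% at all IDR peaks and 29.2% at the 11250 lowest-ranked regions of the pooled list. An E2F site lay at 3 of the 15 (20.0%), which were mcm-4, wee-1.3 and smc-4, all of which also held a CHR element, against 5.4% at IDR peaks near coding 5' ends, 4.7% at all IDR peaks and 1.8% at the low-ranked regions. The summits of the G1/S genes cki-1, cki-2, cdk-4 and cye-1 held neither, and nor did those of cdc-6, ndc-80, mdf-2 and the weaker pcn-1 peak.

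GAGAGA and CTGCGTCT, each at 1 of the 15 summits, both lay at cye-1. The shares over all IDR peaks were 23.8% and 8.7%, and at IDR peaks near coding 5' ends 20.3% and 8.0%. GGCGGG lay at mdf-2 alone, against 7.7% of all IDR peaks. AAGTT, the core known for MYT1-family proteins, lay at 4 of 15 summits (26.7%), those of mcm-2, mcm-4, the weaker pcn-1 peak and ndc-80. The AAGTT share was 15.6% at IDR peaks near coding 5' ends, 13.2% at all IDR peaks and 31.7% at low-ranked regions. The 15 windows were 47.6% G and C on average, and those of all IDR peaks 48.9%. The differences in these shares, which rest on 15 windows, were not tested, and a letter match is not a bound site.

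**Figure D2:**
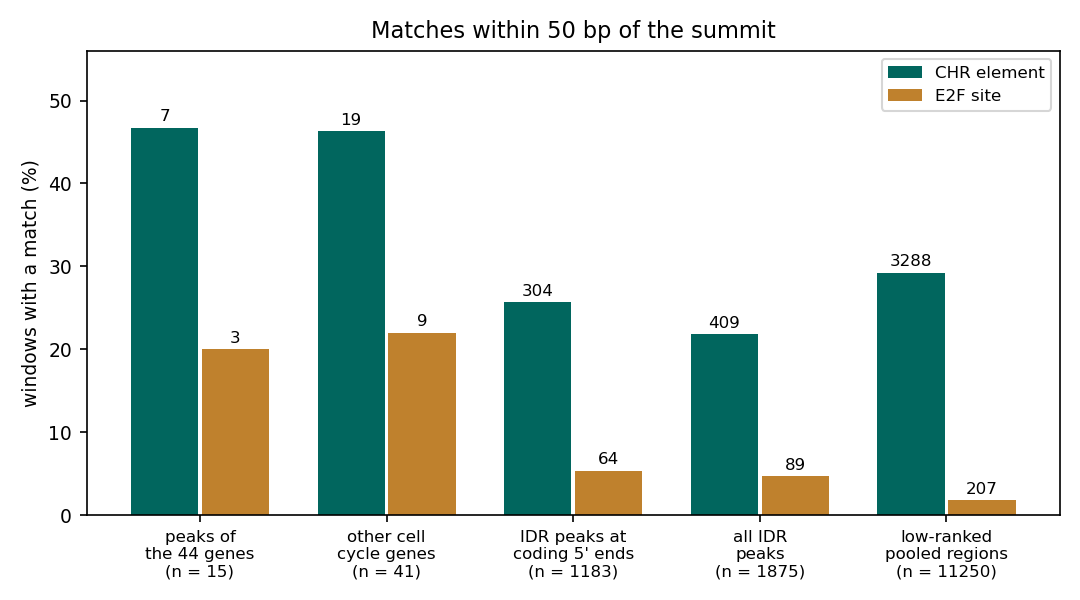
Percentage of summit windows, 50 bp to each side (vertical axis), that held a CHR element (green) or an E2F site (brown), with the number of such windows above each bar. From left to right are the 15 peaks of the 44 genes, the peaks of 41 other cell cycle genes, IDR peaks at coding 5' ends, all IDR peaks and the 11250 lowest-ranked pooled regions. The CHR share was 46.7% and 46.3% and the E2F share 20.0% and 22.0% in the first 2 sets, above the other 3.

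Among the genes of G1 and G1/S control, ZTF-11 lay at both CDK inhibitors and at 1 cyclin and 1 kinase gene of the G1 phase. cki-2 (WBGene00000517), which codes for a CIP/KIP inhibitor of CDKs, had the strongest of these peaks, on chromosome II from 7815567 to 7815684, with a signal of 247.1 and rank 270. It ranked 278 in replicate 1 and 245 in replicate 2, so the replicates placed it alike. The summit lay 897 bp upstream of the 5' end, inside the non-coding RNA gene T05A6.19, whose own 5' end was 109 bp away, and 3 more non-coding RNA genes began within 1000 bp.

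cki-1 (WBGene00000516), the CDK inhibitor that keeps larval blast cells in G1, begins in the same direction and ends 4394 bp before cki-2. Its peak, from 7810756 to 7811119, was 302 bp upstream with no other annotated 5' end in range. The peak had a signal of 77.7 and rank 1475, and the replicates differed most here among the 13 peaks found in both, with rank 1131 in replicate 1 and 7297 in replicate 2. It was thus among the 1875 strongest regions of replicate 1, though not among the top ones, and far below them in replicate 2.

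cye-1 (WBGene00000871), the cyclin E gene, had a peak on chromosome I from 6780035 to 6780398 (signal 92.8, rank 1148), ranked 952 in replicate 1 and 1691 in replicate 2. Its summit was 582 bp upstream of cye-1 but only 66 bp from the 5' end of the divergent gene pqn-21. cdk-4 (WBGene00000406), the partner kinase of cyclin D, had a peak on chromosome X from 13519052 to 13519415 (signal 93.6, rank 1138), 323 bp upstream and shared with the divergent gene F18H3.1, whose 5' end was 429 bp away. It ranked 1029 in replicate 1. In replicate 2 the nearest summit was 154 bp away, beyond the 100 bp allowed for a match, with rank 1591.

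The other 5 genes of this role had no IDR peak. cdc-14, a phosphatase gene, had the strongest region among them, at pooled rank 2016 with a signal of 63.0. It was ranked 1110 in replicate 1 and had no match in replicate 2, with an offset of -982 bp from the 5' end. The cyclin E partner cdk-2 reached rank 3192, the ubiquitin ligase gene cul-1 rank 4867 and fzr-1, an activator of the anaphase-promoting complex, rank 9900. No region of the pooled list lay within 1000 bp of the cyclin D gene cyd-1, and its nearest IDR summit was 4256 bp downstream of the 5' end. Within 500 bp of the 5' end 2 of the 9 genes had a peak, since cye-1 and cki-2 were lost, against 6.38% of all coding genes, and with the 937 strongest peaks only cki-2 kept one.

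In origin licensing, the loader gene cdc-6 had a strong peak and 2 of the 6 MCM helicase genes had weak ones. The cdc-6 (WBGene00000382) peak on chromosome I from 4270375 to 4270738 had a signal of 199.8 and rank 360, with ranks of 356 in replicate 1 and 401 in replicate 2. The summit was 270 bp upstream of cdc-6 and 109 bp from the divergent gene acin-1. By a rule that gives each peak to the single nearest coding gene, at any distance, it was not counted for cdc-6. That rule also dropped smc-4 and added cyd-1 with the summit 4256 bp away, so that 13 of the 44 genes had a peak, against 8.23% of all coding genes. The peak described for cye-1 lay nearer pqn-21 and was not given to cye-1 either. Under that rule cye-1 was still counted, through another summit more than 1000 bp from its 5' end.

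The MCM genes code for the 6 subunits of 1 hexameric helicase, and ZTF-11 was not found alike at them. mcm-4 (WBGene00003156) had a peak whose summit was 143 bp upstream, on chromosome I from 2321778 to 2322141, with a signal of 71.0 and rank 1698; it was ranked 1611 and 2058 in replicates 1 and 2. mcm-2 (WBGene00003154) had a peak on chromosome II from 12006691 to 12007054, 248 bp upstream with no other annotated 5' end in range, a signal of 70.01 and rank 1725, and was ranked 1393 and 2814. Both lie near the end of the IDR list, whose lowest signal was 66.2, and both were beyond rank 1875 in replicate 2.

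At the other 4 MCM genes only low-ranked regions were called. Their pooled ranks were 8141 at mcm-5, 9378 at mcm-3, 11766 at mcm-6 and 15940 at mcm-7. Those of mcm-5 and mcm-7 were each found in 1 replicate only. The origin recognition genes orc-1 and orc-2 had regions at ranks 5948 and 9706, and at cdt-1, whose product loads the helicase with CDC-6, no region was called.

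In DNA synthesis, pcn-1 (WBGene00003955), the gene of the sliding clamp PCNA, stood alone with 2 IDR peaks. The stronger lay on chromosome IV from 4049642 to 4049791, 263 bp upstream, with a signal of 359.5, rank 113, and ranks of 141 and 101 in replicates 1 and 2. The weaker, from 4049730 to 4050093, overlapped it, with its summit 464 bp upstream, a signal of 112.1, rank 883, and ranks of 1227 and 655. Neither summit had another annotated 5' end within 1000 bp. div-1, a subunit gene of DNA polymerase alpha, came next at pooled rank 2036 (signal 62.5), with rank 1425 in replicate 1 and no match in replicate 2. The ribonucleotide reductase genes rnr-1 and rnr-2, whose enzyme makes deoxynucleotides, had regions at ranks 3118 and 5332, each found in both replicates.

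The count for replication genes depended on the replicate used. With the 1875 strongest regions of replicate 2 alone, 2 of 14 replication genes (cdc-6 and pcn-1) had a summit within 1000 bp, against 7.73% of all coding genes. With those of replicate 1 alone 5 of 14 did, div-1 being added, against 7.92%. At 2000 bp it was 7 of 14, against 11% of all coding genes.

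Among the 8 kinase and cyclin genes of mitotic entry, 1 had a peak (12.5%), near the 8.09% of all coding genes. That gene was wee-1.3. wee-1.3 (WBGene00006940) codes for a kinase that inhibits CDK-1. Its peak on chromosome II from 9716668 to 9717031, 383 bp upstream with no other coding 5' end in range, had a signal of 107.6 and rank 925, and was ranked 1108 in replicate 1 and 924 in replicate 2. A piRNA gene, 21ur-12807, began 78 bp from the summit.

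The cyclin B gene cyb-1 came closest to the list, with a region at pooled rank 2037 (signal 62.4) and an offset of -477 bp. It was found in both replicates, ranked 1802 in replicate 1 and 2523 in replicate 2, and entered the count when replicate 1 was used alone. cdk-7, the CDK-activating kinase, had a region at rank 4782. The polo kinase gene plk-1, cdk-1, the second cyclin B gene cyb-3 and the cyclin A gene cya-1 had regions at ranks 14258, 14811, 15032 and 24166, and the phosphatase gene cdc-25.1 had none. None of these 4 regions was found in both replicates.

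Among the genes of the centromere, condensin, spindle and checkpoint, peaks lay at condensin and checkpoint genes and at 1 kinetochore gene. hcp-6 (WBGene00001833), a subunit gene of condensin II, had the strongest peak of all 44 genes, on chromosome I from 5164930 to 5165130, with a signal of 369.8 and rank 102. It ranked 80 in replicate 1 and 181 in replicate 2. Its summit lay almost midway between 2 divergent genes, 129 bp from hcp-6 and 135 bp from let-630. smc-4 (WBGene00004874), an ATPase subunit gene of condensin, had a weak peak on chromosome III from 4587182 to 4587545 (signal 74.9, rank 1559; 1370 and 2729 in replicates 1 and 2). That summit was 137 bp from smc-4 and 34 bp from the divergent gene F35G12.7. At mix-1, which codes for the ATPase that pairs with SMC-4, no pooled region lay within 1000 bp.

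The spindle checkpoint delays anaphase until all kinetochores are attached. Of its 3 genes in the list 2 had a peak, too few to set against the 8.09% of all coding genes. mdf-2 (WBGene00003161), the Mad2 gene, had a peak on chromosome IV from 2640976 to 2641339 with a signal of 144.1 and rank 625, ranked 751 in replicate 1 and 608 in replicate 2. Its summit was the nearest to a 5' end of all 15, at 33 bp, and was 152 bp from the divergent gene nduv-3. bub-1 (WBGene00000275), a checkpoint kinase gene, had a peak on chromosome I from 7251555 to 7251918, with a signal of 108.6 and rank 915. The bub-1 summit was 204 bp upstream and 455 bp from the divergent gene lin-61, and it was ranked 838 in replicate 1. In replicate 2 the nearest summit, ranked 858, was 141 bp away and so not counted as matched. The Mad1 gene mdf-1 had only a region at rank 6459.

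Of the kinetochore and centromere genes, ndc-80 (WBGene00003576), which codes for a microtubule-binding kinetochore protein, had a peak on chromosome IV from 10085679 to 10086042. It was weak, with a signal of 74.9 and rank 1558, ranked 1357 in replicate 1 and 3247 in replicate 2, and lay 276 bp upstream and 410 bp from the divergent collagen gene col-2. knl-1, a scaffold gene of the kinetochore, had a region just outside the list, at pooled rank 1927 with a signal of 64.9 and an offset of -38 bp; it was ranked 1424 in replicate 1 and not matched in replicate 2. hcp-3, the gene of the centromeric histone CENP-A, had the opposite pattern, with pooled rank 2519 (signal 54.1), rank 1207 in replicate 2 and no match in replicate 1. The Aurora kinase genes air-1 and air-2 had regions at ranks 3146 and 7470, the CENP-C gene hcp-4 at rank 6518 and the Cdc20 gene fzy-1 at rank 27871.

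**Figure D3:**
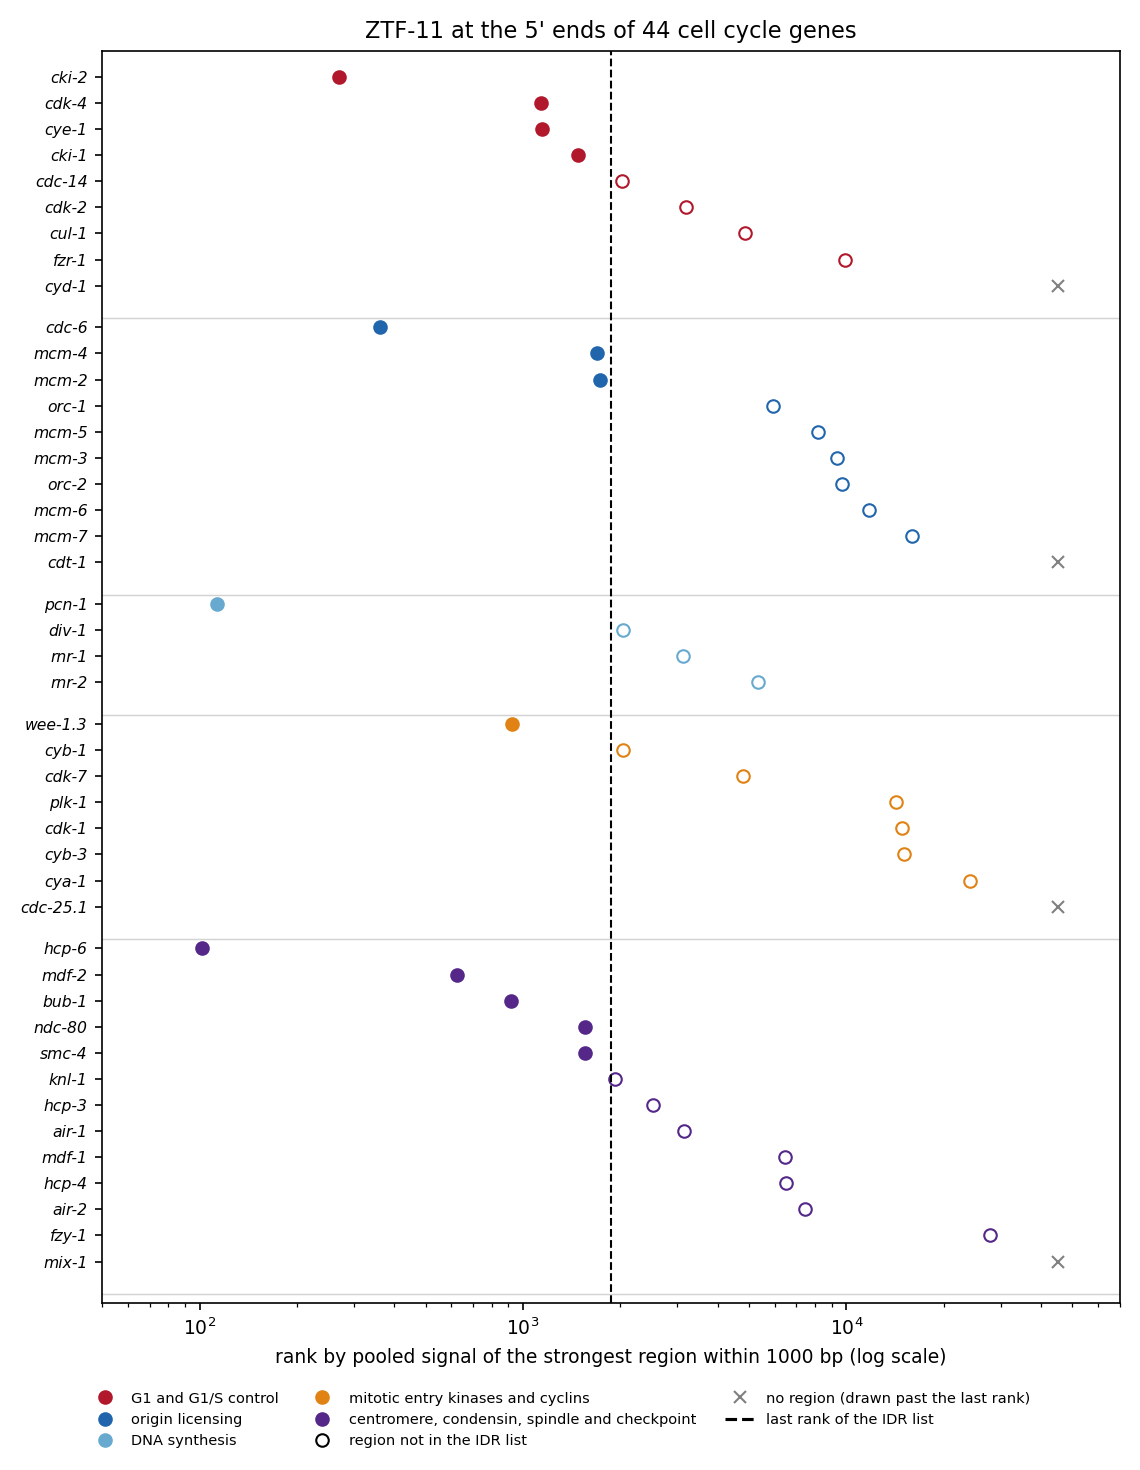
Rank by pooled signal (horizontal axis, log scale, strongest at the left) of the strongest region within 1000 bp of the 5' end of each of the 44 genes, by role. Filled circles left of the dashed line at rank 1875 are the 14 genes with an IDR peak, open circles are genes with a region below the list, and crosses are cyd-1, cdt-1, cdc-25.1 and mix-1, with none.

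Regions below the IDR threshold were common at the genes that had no peak. Of the 30 such genes, 26 had at least 1 region of the pooled list within 1000 bp (86.7%), against 46.1% of all 18358 coding genes without an IDR peak. The strongest of them was found in both replicates at 12 of the 30 (40.0%), against 12.4%, and was at rank 3750 or better at 8 of the 30 (26.7%), against 4.74%. The median rank of the strongest region, over genes with one, was 6489 at the 26 and 13803 at all such coding genes. How these regions relate to open promoter chromatin was not tested.

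The distance allowed mattered little just inside the limit and more outside it. The farthest summit counted was that of cki-2 at 897 bp, and the nearest summits not counted lay 1196 bp upstream of orc-2, 1253 bp upstream of mdf-1, 1443 bp upstream of rnr-1, 1745 bp downstream of the rnr-2 5' end, 1904 bp upstream of fzr-1 and 1945 bp upstream of cdk-7. These 6 genes raised the count to 20 of 44 at 2000 bp, against 11% of all coding genes at that distance. For orc-2 and mdf-1 the coding gene that ends next upstream in the same direction had an IDR peak at its own 5' end. These genes were copz-1 at a gap of 135 bp and his-35 at 433 bp. For rnr-1, rnr-2, fzr-1 and cdk-7 the gene in that place had no IDR peak. These details were looked up after the values had been seen. A coding gene on the same strand ended within 500 bp upstream of 6 of the 44 genes, and 1 of these 6, mcm-4, had a peak, against 13 of the other 38; over all coding genes the shares were 5.9% of 3615 and 8.6% of 16358.

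All 15 summits at the 44 genes lay upstream of the 5' end, and most also lay near another gene. Over all coding genes with a peak, 90.0% of the strongest summits were upstream. The distance at the 14 genes was 33 to 897 bp, with a median of 266.5 bp. The summits were intergenic for 14 of 15 peaks, against 64.1% of all IDR peaks, the exception being the cki-2 summit in a non-coding RNA. These sets are unlike, since all 15 were chosen for lying near a coding 5' end, as only 1183 of the 1875 IDR peaks did. At 9 of the 14 genes (64.3%) another coding 5' end lay within 1000 bp of the summit, against 58.1% of all coding genes with a peak. In 8 of these 9 the partner was divergent, and at mcm-4 it was Y39G10AR.32, which precedes mcm-4 on the same strand with its 5' end 636 bp from the summit. The partner was closer to the summit than the cell cycle gene at cye-1, cdc-6 and smc-4. Among genes with every other coding 5' end more than 2000 bp away, 4 of 11 of the 44 had a peak, against 4.44% of all such coding genes. None of the partners was itself a gene of the lists used here, and to which of 2 divergent genes a summit belongs cannot be told apart from position alone.

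**Figure D4:**
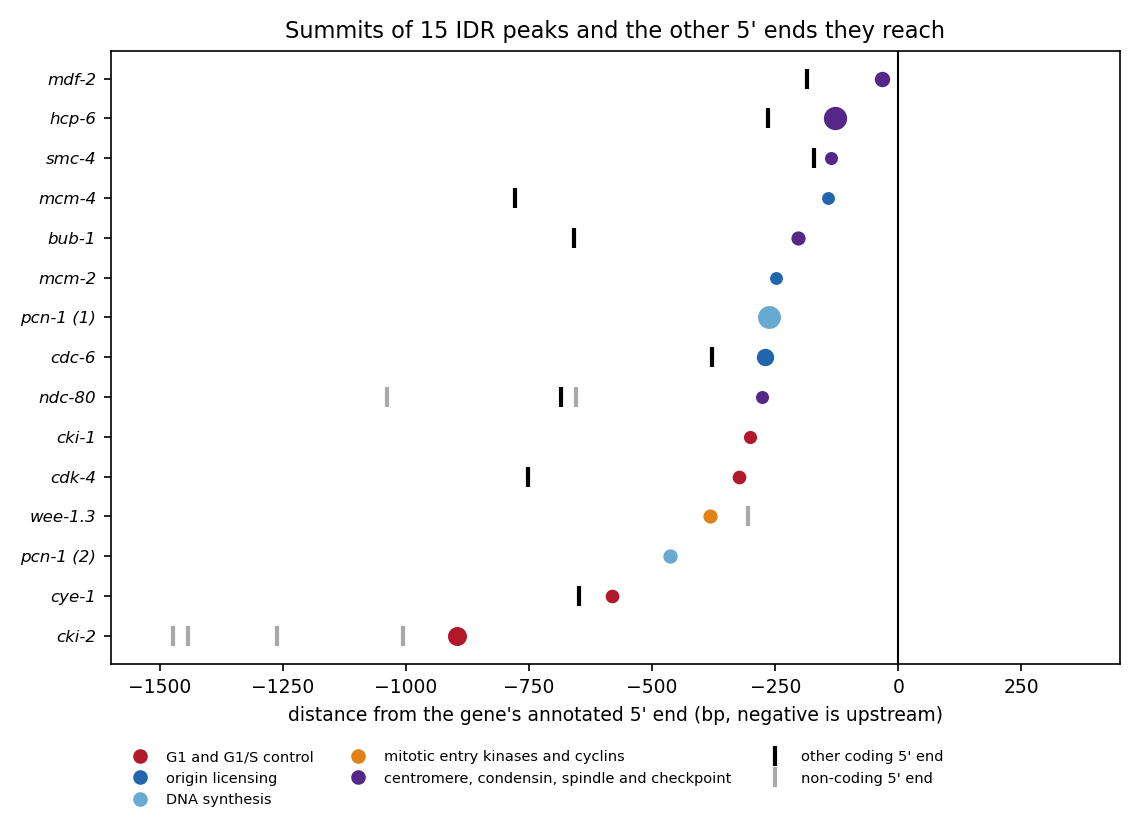
Position of each of the 15 IDR summits (circles, larger for a higher signal) relative to the annotated 5' end of the gene at 0 (horizontal axis, bp, negative upstream), with every other coding (black bars) and non-coding (grey bars) 5' end within 1000 bp of the summit. All circles lie left of 0, between 33 bp for mdf-2 and 897 bp for cki-2.

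The replicates differed in how many of these peaks they placed among their strongest regions. Of the 13 peaks matched in both replicates, 5 had the better rank in replicate 2, those of cki-2, wee-1.3 and mdf-2 and both of pcn-1, and 8 in replicate 1. The median rank was 1029 over the 15 peaks matched in replicate 1 and 924 over the 13 matched in replicate 2. All 15 peaks were among the 1875 strongest regions of replicate 1, but 8 were among those of replicate 2 (53.3%), while over all IDR peaks the shares were 87.6% and 79.6%. For cdk-4 and bub-1, counted as missing there, a replicate 2 summit of rank 1591 and 858 lay beyond the 100 bp limit. Within 100 bp, 13 of the 15 (86.7%) had a match in both replicates, against 95.1% of all IDR peaks, and within 200 bp all 15 did. The 5 genes lost with replicate 2 alone were cki-1, mcm-2, mcm-4, ndc-80 and smc-4, all with a pooled signal of 77.7 or less, and hcp-3 was gained. With replicate 1 alone no gene was lost, and cdc-14, div-1, cyb-1 and knl-1 were gained. The counts were 10 of 44 with replicate 2 alone, against 7.73% of all coding genes, and 18 of 44 with replicate 1 alone, against 7.92%. The peaks of cdc-6, pcn-1, wee-1.3, hcp-6, bub-1 and mdf-2 were present under each distance, list, replicate, overlap and transcript setting tried. The single nearest coding gene rule is not among these settings, and under it cdc-6 was lost.

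**Figure D5:**
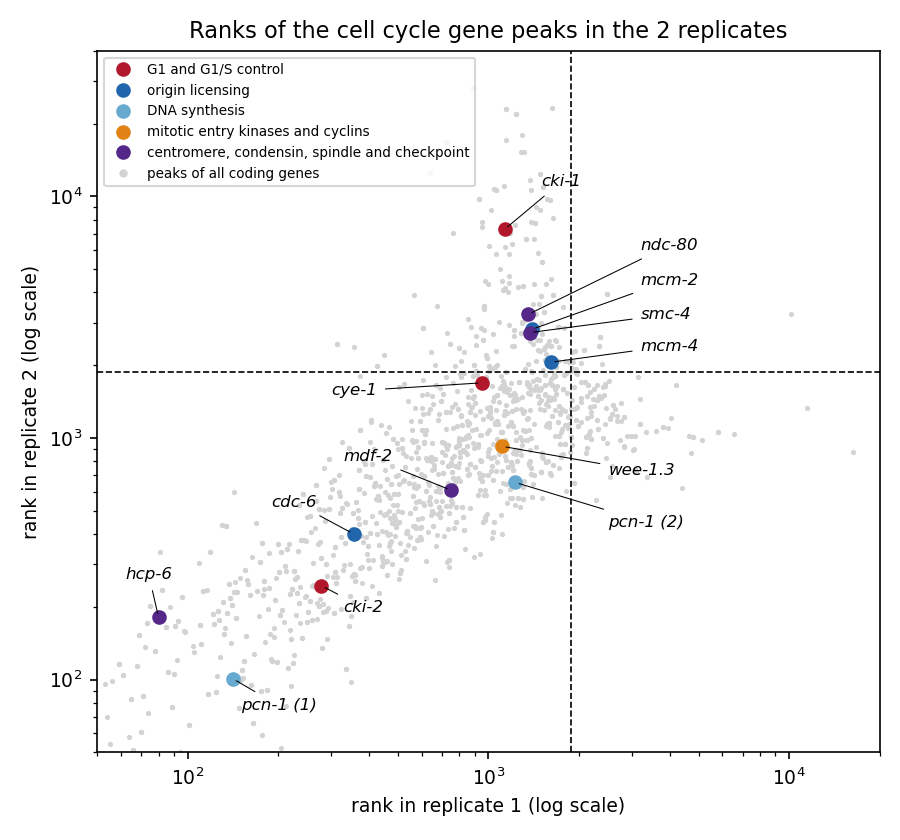
Rank of each matched IDR peak in replicate 1 (horizontal) and replicate 2 (vertical), both on log scales, for 13 peaks of the 44 genes (coloured by role) and the peaks of all coding genes (grey), with dashed lines at rank 1875. The peaks of cki-1, ndc-80, mcm-2, smc-4 and mcm-4 lie above the horizontal line and left of the vertical one, and ranks below 50 are not drawn.

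The 44 genes were unevenly placed on the chromosomes. The counts of peaks per chromosome are small, and differences among them were not tested. Chromosome III held 13 of the 44 genes and 1 peak, at smc-4, and 13.4% of its 2640 coding genes had a peak. Chromosome I held 11 with 5 peaks (346 of its 2878 coding genes had one), II held 10 with 4 (7.9% of its coding genes), IV held 4 with 3 (6.9%), V held 5 with none (4.9%) and X held cdk-4 alone, with a peak (6.2% of its coding genes).

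Other cell cycle genes had peaks about as often. Genes of the replisome list had them more often than the 8 MCM and ORC genes among the 44, a difference that was not tested. That list itself includes orc-3, orc-4 and orc-5, which had no peak, so it is not a set apart from ORC genes. Of 112 genes in 5 further lists, written with earlier results of these data known, 41 had a peak (36.6%), against 14 of the 44 (31.8%) and 8.09% of all coding genes. In the replisome list 14 of 26 did. Among them were mcm-10 (signal 306.1), which activates the loaded helicase, rfc-4 (251.9) and rfc-2 (126.1), subunits of the clamp loader that places PCNA, the polymerase genes pola-1 (242.3) and pole-1 (187.0), both primase genes pri-1 (66.8) and pri-2 (123.5), and psf-1 (118.5), psf-2 (70.7) and psf-3 (256.7) of the GINS complex. The replication protein rpa-2 (193.5), ctf-4 (143.6), top-2 (129.7) and rnh-2 (86.1) made up the rest. Of the 8 MCM and ORC genes among the 44, 2 had one.

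In the list of other cyclins, phosphatases and ubiquitin ligases, 3 of 25 genes (12%) had a peak, near the 8.09% of all coding genes. All 3 were ubiquitin ligase genes, namely cul-4 (signal 83.9), cul-3 (71.8) and lin-23 (68.5). No subunit gene of the anaphase-promoting complex in that list had a peak, nor did cdc-25.2, cdc-25.3, cdc-25.4, cyb-2.1 or cyb-2.2.

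Peaks lay at 8 of 20 genes (40.0%) in the kinetochore and checkpoint list, against 8.09% of all coding genes. They lay at 6 of 16 (37.5%) in the condensin, cohesin and separation list and 10 of 25 (40.0%) in the centrosome, spindle and cytokinesis list. In the kinetochore and checkpoint list the genes with a peak were knl-3 (signal 154.3), kbp-4 (150.1), zwl-1 (149.4), the survivin gene bir-1 (123.7), czw-1 (103.1), san-1 (102.9), kbp-5 (67.2) and him-10 (66.4), which codes for the Nuf2 partner of NDC-80. In the list of condensin, cohesin and separation genes they were the cohesin genes smc-3 (432.5) and scc-1 (73.4), the cohesin release factor wapl-1 (348.6), the securin ify-1 (188.7), the dosage compensation condensin gene dpy-27 (87.7) and kle-2 (74.9). The centrosome, spindle and cytokinesis list had sas-4 (325.7), spd-5 (314.6), spd-1 (240.0), cls-2 (139.3), ect-2 (137.0), klp-18 (131.1), sas-5 (124.7), the gamma tubulin tbg-1 (99.0), spd-2 (81.5) and the anillin ani-1 (74.9). Of the 41 peaks 31 were shared with another coding gene, and in 18 of these the partner was nearer, as at ctf-4, scc-1 and sas-4. When each peak was given to its nearest coding gene only, 25 of the 112 had one, against 8.23% of all coding genes.

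The CHR and E2F shares at these 41 other peaks were close to those at the 44 genes. A CHR element lay within 50 bp of 19 of the 41 summits (46.3%) and an E2F site at 9 (22.0%), namely those of ect-2, knl-3, kbp-4, zwl-1, bir-1, san-1, him-10, pole-1 and top-2. GAGAGA lay at 7 of the 41 (17.1%). With windows of 100 bp either side, the CHR element was at 11 of the 15 peaks of the 44 genes (73.3%), against 48.4% of IDR peaks near coding 5' ends, 40.8% of all IDR peaks and 50.1% of the lowest-ranked regions, and the E2F site at 6 (40.0%), against 9.0%, 7.9% and 3.5% of the same 3 sets. Within 25 bp, 1 of the 15 held a CHR element (6.7%), against 7.2% of all IDR peaks, and 2 held an E2F site (13.3%), against 2.3%.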

How the data were processed

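ZTF-11-GFP ChIP-seq of L1 larvae was deposited as 8 region lists on 2 builds, and the 4 lists on ce11 were used. Per the labels and accompanying text files, regions were called on each replicate and on both pooled, and the IDR list was derived from these 3 lists. For the caller, aligner, versions and threshold, the sources used here name nothing. The signal values and summit offsets are the authors' own as deposited. The deposited −log10 q-values ran from 1.75 to 3.34 in the IDR list, with 1103 of 1875 peaks at the top value, and were not used for ranking.

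The summit is the region start plus the offset. Genes and 5' ends came from Ensembl release 115 of WBcel235, which is ce11, and bases from the RefSeq copy of that assembly. Positions count from 1. Genes were given every IDR peak with its summit up to 1000 bp from the 5' end, and regions of 2 lists matched where summits lay within 100 bp. Where several regions qualified, the strongest was taken at a 5' end, and the one with the nearest summit was taken as the match. The 44 genes, the roles and the lists were chosen with earlier results of these data known. Of 115 names in the lists of others 112 matched a gene, the unmatched being cdc-45, smc-1 and pqn-85. All 44 genes are named, with full values for those with a peak and for the 5 best-ranked without one. No test was made. Functions were tested on simulated data with Python 3.11.15 and pandas 2.3.3. Alternatives were other distances, lists, replicates, windows and gene rules.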

Additional observations from a re-analysis of the deposited data

How the results depend on the processing

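Of the 44 genes, 12 to 20 had a peak with summits within 500 or 2000 bp, with the single nearest gene, with region overlap or with any annotated transcript start, against 6.38% to 11% of all coding genes. It was 10 with replicate 2 alone (7.73%) and 18 with replicate 1 alone (7.92%). The count was 7 with the 937 strongest peaks (4.84%). For isolated genes, those with every other coding 5' end more than 2000 bp away, it was 4 of 11 (4.44% of all such coding genes), a drop that follows from the fewer genes tested. G1/S genes had 2 of 9 at 500 bp, 1 with the 937 strongest peaks and 2 of 5 among isolated genes. Replication genes had 7 of 14 at 2000 bp, 2 with the 937 strongest peaks, 2 of 4 among isolated genes, and 2 to 5 with either replicate alone. Mitosis genes had 0 of 2 isolated genes with a peak. The other cell cycle genes had 25 of 112 with the single nearest gene, 25 with the 937 strongest peaks and 8 of 30 among isolated genes.

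Motif counts over the 15 summits moved with the window. Within 25 bp CTGCGTCT and GGCGGG were at 0, AAGTT at 1 and the CHR element at 1. Over all IDR peaks these 4 were at 5.2%, 4.3%, 6.0% and 7.2%. Within 100 bp GAGAGA was at 3, the CHR element at 11 and the E2F site at 6, against 36.9%, 40.8% and 7.9% of all IDR peaks. Unknown read depth limits every weak peak. No paired analysis was possible because there is 1 group.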
